A study of Arabidopsis thaliana with 24 samples.

Results

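LSM4 and LSM5 are Sm-like proteins that are subunits of ring complexes. The nuclear ring holds the 3′ end of U6, the small nuclear RNA that pairs with the 5′ splice site, and the cytoplasmic ring promotes removal of the mRNA cap before decay. When U6 function is weakened, introns can stay in the RNA, and reads then pile up between exons. The question here was which introns and alternative splicing (AS) bins of Arabidopsis thaliana changed more in the lsm5 mutant than in the lsm4 mutant, or the reverse. For each feature the read count was set against the count of its host gene in the same library, so a change of the whole gene does not count as an intron effect. The quantity compared was the log2 change in lsm5 over its wild type minus the log2 change in lsm4 over its wild type. Of 120717 annotated introns, 12477 in 6292 genes passed the filters on counts, and of 7973 AS bins, 3862 passed.

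The lsm5 mutant (sad1) was in the C24 accession, and its reference was the C24 wild type (WT C24). Both were grown on soil and harvested as whole plants on day 30, before bolting. The lsm4 mutant (allele lsm4-1) was in the Columbia accession, and its reference was the Col wild type (WT Col). Both were grown on agarose-solidified Murashige and Skoog medium and harvested on day 15. All plants were stratified for 4 days and kept at 22 °C in continuous light. Each group had 3 replicates, and each replicate was sequenced as 2 libraries, which the deposited tables hold together. Accession, age and medium changed with the mutated gene, so a difference between the mutants cannot be told apart from a difference between these settings. The labels give neither the kind of lesion nor whether replicates were grown separately, so p-values measure only the spread between these samples.

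Gene counts per replicate totalled 31139275 to 34825263 in lsm5, 16997209 to 37194686 in WT C24, 31480105 to 34800709 in lsm4 and 9402839 to 52218346 in WT Col. WT Col 1 had the fewest reads of all. On the first principal component of the intron ratios in C24 (49.8% of variance), lsm5 1 and 2 lay at -26.4 and -24.9, and WT C24 1 and 3 at 29.2 and 24.2. The replicates lsm5 3 (2.33) and WT C24 2 (-4.45) lay between them. Summed root markers (4 genes) reached 94.3 to 133 CPM, the share of a library's counts in the usual scaled unit, in lsm4 and 173 to 291 CPM in WT Col, against 3.46 to 5.04 CPM in lsm5 and 5.65 to 14.3 CPM in WT C24. Summed senescence markers (3 genes) ran the other way, at 519 to 593 CPM in lsm5 and 471 to 637 CPM in WT C24, against 22.8 to 27.4 CPM in lsm4 and 7.76 to 36.2 CPM in WT Col. Summed floral markers (3 genes) were low throughout and lay above the wild type in both mutants, without overlap. They reached 1.64 to 2.86 CPM in lsm5 and 0.118 to 1.06 CPM in WT C24. In the other accession they reached 1.72 to 3.65 CPM in lsm4 and 0.0764 to 0.364 CPM in WT Col. That second rise was nearly all SEP3 (58, 115 and 69 reads in lsm4, and 1, 17 and 2 in WT Col), and AP3 held 0 reads there. In C24, AP3 held 20, 17 and 24 reads in lsm5 and 0, 1 and 0 in WT C24, SEP3 was also higher, and AG overlapped. Of the 3 genes, edgeR called AP3 alone in lsm5 and SEP3 alone in lsm4. The part of tissue make-up in the results below was not tested.

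Few single introns separated the mutants. With all 12 libraries, 2 of 12477 introns differed between the mutants (0.016% of those tested) in edgeR's quasi-likelihood test at a Benjamini-Hochberg adjusted p under 0.05. Both were lower in lsm5, that is, they rose more in lsm4: intron 5 of LSM4 itself, and the 3′-most intron of AT3G26850. Among the AS bins, 1 of 3862 differed (0.0259%), a bin at the 5′ side of PRIN2, and 4.84% had an unadjusted p under 0.05, with 2.05% higher and 2.8% lower in lsm5. No intron or bin was called higher in lsm5. Without an adjustment, 993 introns (7.96%) had a p under 0.05, 227 of them higher in lsm5 (1.82%) and the others lower (6.14%). That lean was measured against the host gene, with no centring. With the median intron set to 0 in each library, 860 had an unadjusted p under 0.05, 507 of them higher in lsm5. The median difference was then 0.06, and edgeR called 1 intron higher and 2 lower. DESeq2, without centring, called 3 introns higher and 9 lower. Without lsm5 3 alone edgeR called 3 higher and 5 lower, and without WT Col 1 alone 2 higher and 2 lower.

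The splice sites of the LSM4 introns that carried reads, and of the called intron of AT3G26850, are shown because U6 pairs with the first bases of an intron. Each line gives the last 3 exon bases and the first 8 intron bases, and then the last 20 intron bases and the first 3 exon bases, from the TAIR10.1 reference, whose chromosomes match the TAIR10 build of the files. Capitals mark the first and the last 2 bases of the intron.
LSM4 intron 5, 5′ site: gagGTaatttt
LSM4 intron 5, 3′ site: ttgatttcttctctcttcAGgtg
LSM4 intron 6, 5′ site: cagGTatagta
LSM4 intron 6, 3′ site: cgatggttgaatatgtgcAGata
LSM4 intron 7, 5′ site: gagGTaaaaaa
LSM4 intron 7, 3′ site: taatatgttatgaaaaacAGgag
AT3G26850 intron 3, 5′ site: tttGTcttgtc
AT3G26850 intron 3, 3′ site: agaatccaggacaatctgAGaat
All of these introns began with GT and ended with AG. None of them had G at intron base 5, a base that 48.4% of the tested GT-AG introns had. Over all tested GT-AG introns, those with G there had the larger median changes. These were 0.37 in lsm5 and 0.75 in lsm4, beside 0.28 and 0.55 with another base.

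LSM4 intron 5 (AT5G27720, plus strand, chr5:9816461-9816887, inside the coding region) held 18, 42 and 17 reads in lsm5 and 8, 22 and 12 in WT C24. In the other accession it held 3372, 2246 and 3344 reads in lsm4 and 5, 39 and 21 in WT Col. Only the lsm4 libraries were high, and they lay far above all others. The host gene itself had 1847 to 2333 reads in lsm5, 853 to 1765 in WT C24, 8820 to 14232 in lsm4 and 430 to 2422 in WT Col. Read density over the intron, as a percent of that of the gene, was 2.58 ± 1.1% in lsm5 and 2.31 ± 0.332% in WT C24, and 51.9 ± 2.13% in lsm4 and 2.81 ± 0.544% in WT Col (SD, n = 3 each). The difference between the mutants was -4.01 on the log2 scale (SE 0.42, edgeR adjusted p = 4.9e-05). It came from a change of 4.16 in lsm4 (SE 0.30), beside 0.15 in lsm5 (SE 0.30). The difference kept its direction and stayed below an adjusted p of 0.05 in all 23 alternatives that tested it. The reference annotates a small nucleolar RNA gene, AT5G04425 (chr5:9816530-9816667), inside this intron, and reads of the 2 cannot be told apart. LSM4 is also the gene mutated in lsm4. A local effect of the lesion on reads of this gene cannot be told apart from an effect on splicing.

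Both introns downstream of it were also called raised in lsm4 (1.55, SE 0.36 for intron 6 and 1.87, SE 0.44 for intron 7), and those upstream held too few reads. Intron 6 (chr5:9816925-9817055) was at 11.7 ± 0.452% of the gene's density in lsm5 and 5.94 ± 0.727% in WT C24, and at 47.1 ± 1.08% in lsm4 and 18.3 ± 12.7% in WT Col. Here the lsm5 and WT C24 libraries did not overlap either, and the difference between the mutants was small beside its error (-0.55, SE 0.54, edgeR adjusted p = 0.83). Intron 7 (chr5:9817164-9817281) was at 7.97 ± 2.71% in lsm5 and 7.48 ± 6.61% in WT C24, and at 27.0 ± 2.3% in lsm4 and 6.94 ± 1.81% in WT Col. Its difference was -1.70 (SE 0.66, edgeR adjusted p = 0.57). Introns 1 to 4 held at most 10 reads in any library and were too low to test. The 3 introns of LSM5 (AT5G48870) held at most 13 reads in any library and were too low to test as well.

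**Figure D1:**
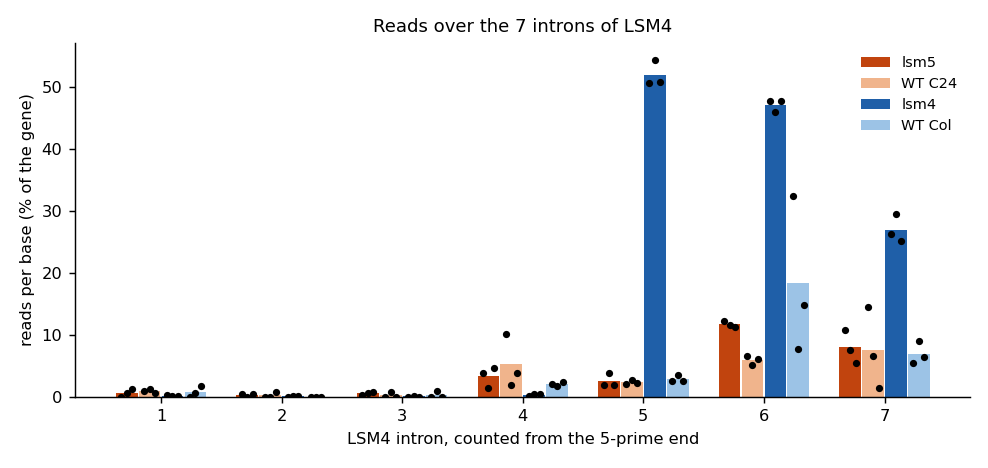
Read density over each of the 7 introns of LSM4 as a percent of the density of the gene (y axis), by group; bars are means of 3 libraries and points are the libraries. Introns 5, 6 and 7 stand at 51.9%, 47.1% and 27.0% in lsm4, and introns 1 to 4 stay near 0 in lsm4.

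At the gene level LSM4 stood at 65.6 ± 12.2 CPM in lsm5 and 50.9 ± 5.39 CPM in WT C24, and at 338 ± 97.8 CPM in lsm4 and 53.8 ± 15.8 CPM in WT Col (SD, n = 3 each). The total count of the gene was thus higher in the lsm4 libraries (log2 change 2.65, SE 0.27). Its change differed between the mutants by -2.29 (SE 0.37, edgeR adjusted p = 0.002). Not all parts rose with the total: intron 4 held 2, 4 and 8 reads in lsm4 and 1, 5 and 5 in WT Col. Whether the exons rose alike along the gene was not tested. LSM5 stood at 13.3 ± 3.76 CPM in lsm5 and 16.6 ± 4.06 CPM in WT C24, a difference inside the spread of the replicates. Neither gene total therefore checks the mutant labels by a loss of reads.

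AT3G26850, which the reference annotates as a histone-lysine N-methyltransferase, carried the other called intron (minus strand, chr3:9895581-9896473, the last of 3, on the 3′ side of the coding region). It held 314, 491 and 430 reads in lsm5 and 98, 285 and 211 in WT C24, and 364, 313 and 448 in lsm4 and 17, 72 and 57 in WT Col. WT Col was low and the other groups were not. The difference between the mutants was -3.24 (SE 0.50, edgeR adjusted p = 0.014), from -0.59 in lsm5 (SE 0.34) and 2.65 in lsm4 (SE 0.37). The intron count exceeded the count of its own gene in most libraries: the gene had 68, 66 and 108 reads in lsm5 and 110, 149 and 74 in lsm4. The intron overlaps an alternative exon of AT3G26850 and the 3′ end of PES2 (AT3G26840), a phytyl ester synthase gene on the opposite strand. PES2 stood at 33.5 ± 3.80 CPM in lsm5 and 25.5 ± 1.58 CPM in WT C24, and at 29.7 ± 3.57 CPM in lsm4 and 5.27 ± 1.08 CPM in WT Col. Its own gene-level change was 0.39 in lsm5 (SE 0.18) and 2.50 in lsm4 (SE 0.20), a difference of -2.11 (SE 0.27, edgeR adjusted p = 4.4e-04). Because the kit leaves strand unmarked, PES2 reads cannot be told apart from reads of this intron.

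Both called introns thus contain an annotated exon of another gene. Among the 10078 tested introns with no annotated exon inside, tested as a set of their own, edgeR called 0 (828 had an unadjusted p under 0.05). DESeq2, run on the full set, called 12. Summing all introns of a gene changed little: of 9706 genes, 2 differed (0.0206%), again LSM4 and AT3G26850. Next in that list was KIN2, a cold- and ABA-induced gene, whose intron reads stood at -0.01 in lsm5 and 1.75 in lsm4 (difference -1.76, SE 0.33, edgeR adjusted p = 0.076).

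The AS bin of PRIN2 (AT1G10522, chr1:3469668-3469837, plus strand), a gene for a protein of plastid transcription and redox signalling, had values of opposite sign in the mutants. It held 31, 35 and 14 reads in lsm5 and 48, 73 and 51 in WT C24, and 72, 60 and 79 in lsm4 and 10, 88 and 29 in WT Col. Relative to the gene, density was 21.2 ± 5.97% in lsm5 and 66.6 ± 5.17% in WT C24, and 99.6 ± 11.9% in lsm4 and 23.4 ± 6.29% in WT Col. The groups did not overlap in either accession, lsm5 lying below and lsm4 above its wild type. The difference was -3.68 (SE 0.44, edgeR adjusted p = 0.004), from -1.63 in lsm5 (SE 0.31, adjusted p = 0.067) and 2.04 in lsm4 (SE 0.31, adjusted p = 0.014). The bin takes part in several kinds of event and lies at the 5′ side of the gene. The PRIN2 gene itself stood at 0.12 in lsm5 (SE 0.23) and fell in lsm4 (-1.49, SE 0.23, edgeR adjusted p = 5.5e-04), where the share of the bin rose. Without WT Col 1 and lsm4 2 together, the bin's adjusted p was 0.051.

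Behind these few calls lay a broader shift of introns in both mutants, larger in lsm4. In lsm5, 201 introns were raised over WT C24 (1.61% of those tested) and 2 were lowered (0.016%); in lsm4, 1259 were raised over WT Col (10.1%) and 17 were lowered (0.136%). The 2 lowered in lsm5 were intron 9 of PRP39 and intron 3 of AT3G20430 (-2.69, SE 0.62). These counts moved with single libraries: lsm5 had 22 called introns without WT C24 3, 25 without WT C24 1, 34 without lsm5 1, 66 without lsm5 2, 129 without lsm4 3 and 318 without lsm5 3, and lsm4 had 407 without WT Col 2, 492 without WT Col 3, 626 without lsm4 1 and 821 without lsm4 3. The median change over all tested introns was 0.33 in lsm5 and 0.64 in lsm4. The median of the difference was -0.28, and 62.3% of introns lay below 0. These medians are measured against the host gene, with no centring; when the median intron was set to 0, lsm5 had 15 raised and 3 lowered introns and lsm4 146 raised and 125 lowered. The shift was also there in introns whose host gene was called in neither mutant (8705 introns), with medians of 0.31 in lsm5, 0.62 in lsm4 and -0.28 for the difference.

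Over whole libraries, intron reads were 1.97, 1.85 and 2.07% of gene reads in lsm5 and 1.57, 1.63 and 1.68% in WT C24. They were 2.89, 2.94 and 2.71% in lsm4 and 1.86, 1.88 and 1.77% in WT Col. Each mutant lay above its wild type in all libraries, 1.21-fold for lsm5 and 1.55-fold for lsm4. The 3 lsm5 libraries were 0.19 to 0.35 above the mean of WT C24 on the log2 scale, and the 3 lsm4 libraries were 0.56 to 0.68 above the mean of WT Col, so the mutants did not overlap. The difference was -0.36 (SE 0.07 from the spread of the libraries). An exact permutation test over the 400 assignments of genotype labels within the accessions, two-sided, gave p = 0.225. That test asks for no effect in either accession, and assignments that turn the labels round in a single accession give larger differences, so it cannot reach a small p when both mutants lie above their wild type. A two-sided exact permutation of the 3 lsm5 against the 3 lsm4 values, each relative to the mean of its wild type, gave p = 0.1, the smallest it can give. It was added to the planned test over 400 assignments, and the spread of the wild-type libraries does not enter it.

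**Figure D2:**
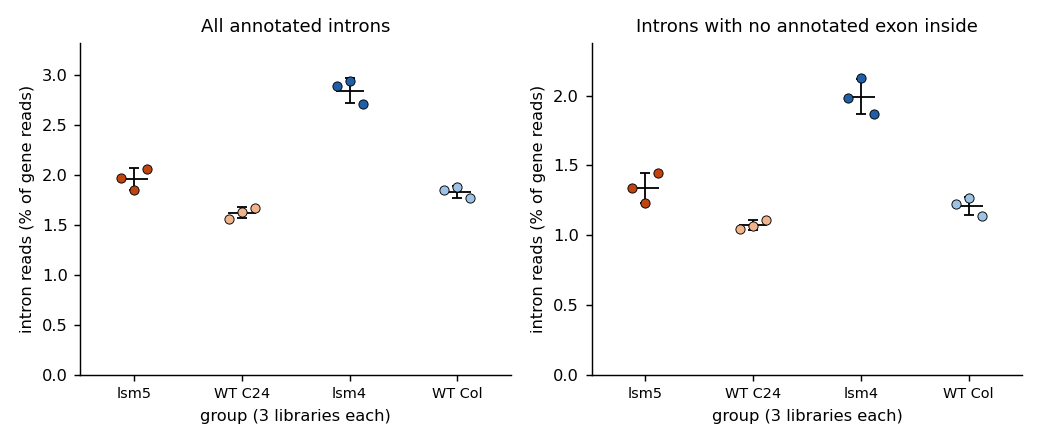
Reads in introns as a percent of reads in genes (y axis) for the 3 libraries of each group, with mean and SD, for all annotated introns (left) and for introns with no annotated exon inside (right). All introns average 1.96% in lsm5 and 1.62% in WT C24, and 2.85% in lsm4 and 1.84% in WT Col.

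Introns raised in one mutant mostly leaned the same way in the other. Raised in both were 140 introns, which is 69.7% of those raised in lsm5 and 11.1% of those raised in lsm4. The introns raised in lsm5 had a median change of 2.58 in lsm5 and 2.03 in lsm4, and 97.5% of them lay above 0 in lsm4, as did 80.7% of all tested introns. The introns raised in lsm4 had a median change of 1.09 in lsm5 and 2.34 in lsm4, and 89.3% of them lay above 0 in lsm5, as did 69.3% of all tested introns. Since each set was chosen by its own mutant, the larger value in that mutant is partly a product of the choice. Of the 61 introns raised in lsm5 and not called in lsm4, 60 had the larger change in lsm5 and the median difference was 1.69, yet none was called for the difference. Over all tested introns the changes in the 2 mutants had a Pearson correlation of 0.32, and over the 2381 introns with a mean count of 30 or more it was 0.37; introns are not independent replicates, and no library is shared between the contrasts. No intron or bin was called in opposite directions with a called difference. At unadjusted p under 0.05 in all 3 contrasts, 18 introns had opposite signs, 8 up in lsm5 and 10 up in lsm4.

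**Figure D3:**
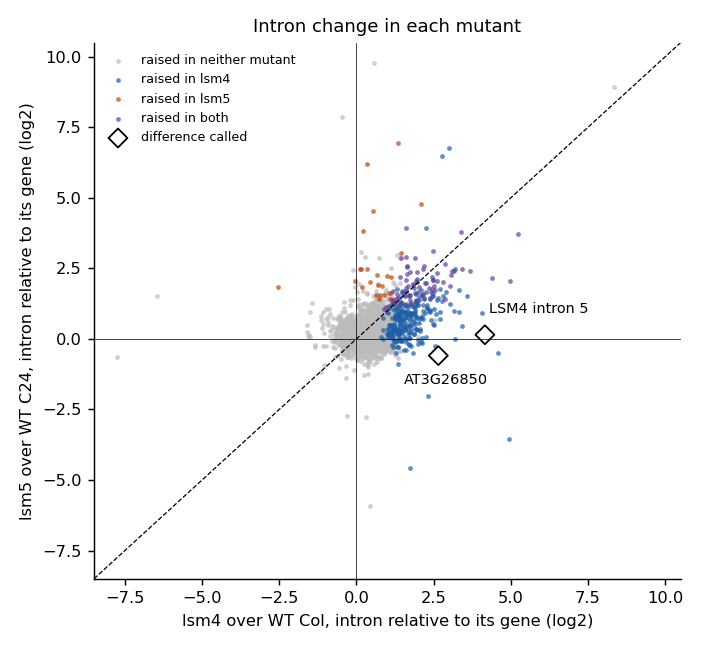
Change of each intron relative to its gene in lsm4 over WT Col (x axis, log2) and in lsm5 over WT C24 (y axis, log2), for the 2381 tested introns with a mean count of 30 or more; the dashed line marks equal change. Colours mark introns raised in each mutant, and open diamonds the 2 introns with a called difference, both at the right near 0 on the y axis.

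The precision of the test set what could be seen. The median SE of the difference was 0.86 over all tested introns and 0.53 over those with a mean count of 30 or more, so that 2-fold differences in single introns were mostly within the error. When lsm5 3 and WT C24 2 were left out together, a choice made after their position was seen, 105 introns were called for the difference, 34 higher and 71 lower in lsm5. Of the 104 of these that had also been tested with all libraries, 104 had the same sign there and 69 had an unadjusted p under 0.05. They were chosen from part of the same libraries, so the shared signs and low p-values are not an independent check. Leaving out replicates that lie between the groups narrows the spread within groups by construction, only 2 libraries per C24 group remain, and the filters then kept more introns (14771). Leaving out WT Col 1 and lsm4 2 together gave 2 higher and 2 lower.

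The introns closest to a call were looked at after their values were seen, by the smallest unadjusted p among introns with at least 30 reads in each accession and 4 in each group. Intron 3 of the aquaporin gene PIP1;3 (AT1G01620, chr1:226082-226170, minus strand) was lower in lsm5. It held 30, 32 and 32 reads in lsm5 and 7, 28 and 16 in WT C24, and 195, 260 and 256 in lsm4 and 1, 9 and 6 in WT Col. The lsm4 libraries stood apart from all others, at 9.03 ± 2.3% of gene density, against 0.784 ± 0.261% in WT Col. The difference was -2.95 (SE 0.55, edgeR adjusted p = 0.083), and it passed 0.05 under DESeq2 (0.0077). The gene is one of a family of similar aquaporins, so reads can be shared between copies.

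Intron 1 of AT1G56220 (chr1:21043529-21043703) was at 4.61 ± 0.504% of gene density in lsm5 and 2.51 ± 0.0339% in WT C24, and at 15.6 ± 3.12% in lsm4 and 2.55 ± 0.863% in WT Col. Both mutants lay clear of their wild types, and the value was 0.87 in lsm5 (SE 0.28) and 2.58 in lsm4 (SE 0.29), with a difference of -1.70 (SE 0.39, edgeR adjusted p = 0.32). Intron 5 of the glutathione transferase gene GSTF8 (ATGSTF5 in the files) was at 2.55 ± 0.350% in lsm5 and 2.73 ± 1.02% in WT C24, and at 7.87 ± 1.41% in lsm4 and 1.72 ± 0.536% in WT Col. Its value was -0.10 in lsm5 and 2.09 in lsm4, with a difference of -2.19 (SE 0.50, edgeR adjusted p = 0.32). Introns of the chromatin protein gene HMGB2 (difference -3.12, SE 0.72), of FUG1, a plastid translation initiation factor (-3.21, SE 0.75), and of AT4G34150 (-4.16, SE 0.93) were also lower in lsm5, with the same edgeR adjusted p of 0.32. In all 3 the WT Col libraries held at most 14 reads.

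For some of these, replicates of the same genotype differed widely. Intron 3 of Y14, a protein of the exon junction complex, had the largest difference of the group, at -8.52 (SE 2.00). Its counts were 3, 18 and 7 in lsm5 and 2, 6 and 178 in WT C24, and 7, 19 and 454 in lsm4 and 4, 2 and 3 in WT Col. WT C24 3 and lsm4 3 held nearly all reads, and the other libraries did not separate. Intron 2 of CA1, the plastid carbonic anhydrase gene, was the reverse case (5.86, SE 1.68), with 34, 309 and 15 reads in lsm5 and 1, 2 and 1 in WT C24, and 362, 32 and 346 in lsm4 and 1, 788 and 352 in WT Col. Here WT Col 1 was at the WT C24 level and the other WT Col libraries were among the highest.

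In the opposite direction, several introns had differences above 0 that were not called. Intron 1 of AT2G38870, the sole intron of its gene, was at 5.85 ± 1.4% of gene density in lsm5 and 2.43 ± 0.270% in WT C24, and at 1.57 ± 0.612% in lsm4 and 3.97 ± 2.85% in WT Col. The lsm5 libraries lay above all WT C24 libraries, while lsm4 overlapped WT Col. The difference was 2.71 (SE 0.59, edgeR adjusted p = 0.32), from 1.26 in lsm5 (adjusted p = 0.11) and a fall in lsm4 (-1.45, adjusted p = 0.039). The sole intron of HPL1, a hydroperoxide lyase gene, was at 1.42 ± 1.23% in lsm5 and 0.280 ± 0.250% in WT C24, and at 3.62 ± 0.262% in lsm4 and 11.5 ± 2.93% in WT Col. Here lsm4 lay below WT Col without overlap, and lsm5 3 held 0 reads (difference 3.88, SE 0.96, edgeR adjusted p = 0.37). In the sole intron of the ESP gene (TASTY in the files), which acts in glucosinolate breakdown, the difference was 2.1 (SE 0.53, edgeR adjusted p = 0.37), from 0.49 in lsm5 and a fall in lsm4 (-1.60, adjusted p = 0.018); WT Col 3, at 0.309%, lay next to lsm4 2, at 0.305%. Intron 3 of MAF2, a MADS-box repressor of flowering whose splicing is known to depend on temperature, was at 183 ± 11.7% in lsm5 and 36.7 ± 32.3% in WT C24, and at 100 ± 23.9% in lsm4 and 103 ± 2.64% in WT Col. Relative to its gene it changed in lsm5 (2.05, SE 0.46, edgeR adjusted p = 0.026) and lay at -0.04 in lsm4 (SE 0.36), with a difference of 2.1 (SE 0.58, adjusted p = 0.41). The intron held 23, 15 and 20 reads in lsm5 and 1, 23 and 4 in WT C24. The MAF2 gene itself fell in lsm5 (-1.13, edgeR adjusted p = 0.026), from 135, 439 and 206 reads in WT C24 to 169, 123 and 146. The part of that fall in the ratio was not tested. WT C24 2 was the highest of its group in density, at 72.7%. A density over 100% means that the intron held more reads per base than the gene. PCC1, a pathogen- and clock-controlled gene, had the smallest p over all introns after the 2 calls and PIP1;3 (4.37, SE 0.82, edgeR adjusted p = 0.083), but its intron held 0, 0 and 1 reads in lsm4.

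**Figure D4:**
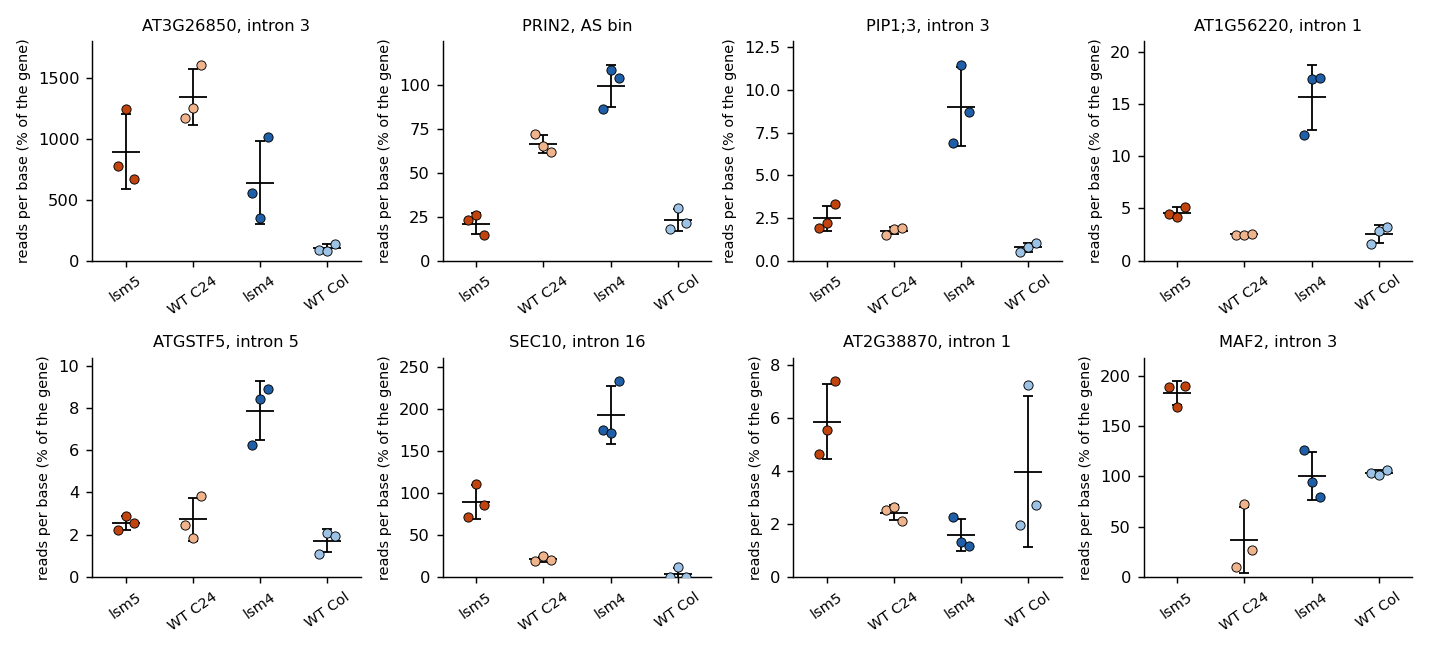
Read density as a percent of the density of the gene (y axis) in the 3 libraries of each group, with mean and SD, for the called intron of AT3G26850, the called PRIN2 bin and 6 introns named after their values were seen. PIP1;3, AT1G56220, ATGSTF5 (GSTF8) and SEC10 are highest in lsm4, whereas AT2G38870 and MAF2 have their highest mean in lsm5.

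Some of the largest rises within a mutant, also listed after their values were seen, were shared. Those in PGR5-LIKE A, APR2, SEC10 and BT2 were called in both mutants, those in PSBQA, CA1 and GASA1 in lsm5 and not in lsm4, and those in AT4G34150 and Y14 in lsm4 and not in lsm5. Among introns raised in lsm5, that of PGR5-LIKE A, a gene of cyclic electron flow, was at 28.9 ± 7.43% of gene density in lsm5 and 2.13 ± 0.707% in WT C24, and at 42.4 ± 15.7% in lsm4 and 3.83 ± 0.762% in WT Col. Its difference was 0.41 (SE 0.65). Intron 1 of APR2 (PRH in the files), an enzyme of sulfate assimilation, was among the largest rises in both, with 3.72 in lsm5 (SE 0.73) and 5.23 in lsm4 (SE 0.71). Intron 16 of SEC10, an exocyst subunit, changed by 2.07 in lsm5 (SE 0.45) and by 4.97 in lsm4 (SE 0.56), and was called raised in both; the difference was -2.90 (SE 0.75, edgeR adjusted p = 0.37). The first intron of GASA1, a gibberellin-responsive peptide gene, rose by 4.78 in lsm5 (SE 0.53) and stood at 2.1 in lsm4 (SE 0.68). Its host gene had 250 reads in WT Col 1 and 13473 in WT Col 2, so its wild-type level differed widely between replicates.

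Factors of splicing and decay were described by gene list; over all tested introns, 1.61% were raised in lsm5 and 10.1% in lsm4. Of 72 tested introns in 19 SR splicing factor genes, which bind exonic signals and define splice sites, 0 were raised in lsm5 and 13 in lsm4 (18.1%), and 0 were called for the difference. Their median change was 0.31 in lsm5 and 0.86 in lsm4, beside 0.33 and 0.64 over all tested introns. The widest gap below 0 was in intron 9 of SR45, at 3.05 ± 0.698% of gene density in lsm5 and 2.18 ± 1.17% in WT C24, and at 3.98 ± 0.401% in lsm4 and 0.653 ± 0.671% in WT Col (difference -2.80, SE 0.85, edgeR adjusted p = 0.48). WT Col held 2, 2 and 2 reads there. The widest gap above 0 was in intron 6 of SR34 (1.41, SE 0.84). Intron 3 of SR30, chosen after its values were seen, was at 39.8 ± 5.53% in lsm5 and 11.4 ± 2.46% in WT C24, and at 61.8 ± 15.6% in lsm4 and 12.0 ± 6.23% in WT Col. It was called raised in lsm4 (2.31, SE 0.44, edgeR adjusted p = 0.0035), and its value in lsm5 was 1.73 (SE 0.49, adjusted p = 0.072).

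In 13 genes of the core spliceosome and its small nuclear ribonucleoproteins, 40 introns were tested. In lsm5, 0 were raised and 1 was lowered; in lsm4, 5 were raised (12.5%, beside 10.1% of all tested introns); 0 were called for the difference. The lowered one was intron 9 of PRP39, a U1 ribonucleoprotein component, at 5.82 ± 1.96% of gene density in lsm5 and 38.6 ± 17.2% in WT C24, and at 21.6 ± 10.5% in lsm4 and 28.1 ± 12.0% in WT Col. It fell in lsm5 (-2.73, SE 0.46, edgeR adjusted p = 0.006), stood at -0.30 in lsm4 (SE 0.42), and differed by -2.43 (SE 0.62, adjusted p = 0.37). A skipped-exon bin of PRP39, also chosen after its values were seen, stood at -3.0 in lsm5 (SE 0.58) and -0.08 in lsm4 (SE 0.53). U2AF35B, the small subunit of the factor that reads the 3′ splice site and was likewise chosen after its values were seen, had in intron 1 a value of -0.92 in lsm5 (SE 0.82) and a rise of 3.27 in lsm4 (SE 0.80, adjusted p = 0.014). The widest gaps of this list with 30 reads per accession were in U2AF65A intron 6 (-2.76, SE 1.02) and U1-70K intron 6 (1.00, SE 1.2).

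Among decapping and decay genes, 15 introns of 6 genes were tested, and 2 were raised in lsm5 (13.3%), 3 in lsm4 (20%) and 2 in both, beside 1.61% in lsm5 and 10.1% in lsm4 over all tested introns. The last intron of the decapping activator DCP5 was raised in both, by 2.89 in lsm5 (SE 0.57, edgeR adjusted p = 0.014) and by 1.61 in lsm4 (SE 0.42, adjusted p = 0.020), and had the widest gap above 0 of the list (1.28, SE 0.72). Intron 7 of DCP1, chosen after its values were seen, was at 20.4 ± 3.90% in lsm5 and 2.66 ± 3.0% in WT C24, and at 47.5 ± 5.4% in lsm4 and 2.58 ± 2.57% in WT Col, with no overlap in either accession. The widest gap below 0 was in VCS intron 10 (-2.27, SE 1.53). Among LSM genes, 10 introns of 6 genes were tested; 0 were raised in lsm5 and 3 in lsm4, all in LSM4, and the widest gap above 0 was in LSM6B (0.87, SE 0.90). Among the self-regulating RNA binders, 9 introns were tested and 0 were raised in either mutant. The sole intron of GRP8, whose protein acts on its own transcript, was at 21.2 ± 3.55% in lsm5 and 19.2 ± 2.37% in WT C24, and at 29.2 ± 1.76% in lsm4 and 31.5 ± 3.96% in WT Col. Its difference was 0.25 (SE 0.31). The widest gap below 0 was in intron 3 of PTB2 (-1.57, SE 0.97).

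In ABA and abiotic stress genes, 2 of 32 introns were raised in lsm5 (6.25%), 7 in lsm4 (21.9%) and 2 in both. The 2 were introns 1 and 2 of ABI1, a phosphatase that holds back ABA signalling. Intron 1 changed by 2.05 in lsm5 (SE 0.49) and by 2.16 in lsm4 (SE 0.46), a difference of -0.12 (SE 0.74). Intron 2 changed by 3.38 in lsm5 (SE 0.72) and by 1.83 in lsm4 (SE 0.58), with WT C24 at 0, 4 and 0 reads, and had the widest gap above 0 of the list (1.55, SE 0.97). The widest below 0 was in ABF3 (-1.79, SE 0.81). In photosynthesis genes, 6 of 70 introns were raised in lsm5 (8.57%), 9 in lsm4 (12.9%) and 3 in both; over all tested introns these shares were 1.61% and 10.1%. Intron 4 of RCA, the Rubisco activase gene, chosen after its values were seen, was raised in both, by 2.03 in lsm5 (SE 0.32, edgeR adjusted p = 0.0032) and by 2.79 in lsm4 (SE 0.32, adjusted p = 4.3e-05). Intron 1 of PSBQA had the widest gap above 0 (3.98, SE 1.34), with 1690, 118 and 877 reads in lsm5, 14, 23 and 40 in WT C24, 110, 554 and 877 in lsm4 and 22, 2150 and 55 in WT Col, where a single library held nearly all reads. The widest below 0 was in Lhca5 (-1.46, SE 0.86). Of 24 introns of clock genes, 0 were raised in lsm5 and 1, in RVE8, in lsm4; the widest gaps were in LHY (1.48, SE 0.79) and JMJ30 (-3.65, SE 1.08, edgeR adjusted p = 0.44). Except for LSM4, no list held a called difference.

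By kind of intron, the median change in lsm4 exceeded that in lsm5 in most classes. The median was 0.40 in lsm5 and 0.77 in lsm4 for introns under 90 bases (3538 introns), and 0.44 in lsm5 and 0.65 in lsm4 for introns of 500 bases or more (1237). Raised introns were 2.15% and 2.18% of these classes in lsm5 and 13.6% and 13.3% in lsm4, against 1.08% to 1.49% in lsm5 and 7.64% to 8.73% in lsm4 in the 3 classes between. Introns with G at intron base 5 (5912) had medians of 0.37 in lsm5 and 0.75 in lsm4, and those with another base there (6305) 0.28 in lsm5 and 0.55 in lsm4. Where the last exon base was not G (2338) the medians were 0.41 in lsm5 and 0.74 in lsm4, and where it was G (9879) 0.31 and 0.63. Introns inside the coding region (11372) had medians of 0.33 in lsm5 and 0.65 in lsm4, and the 260 on its 3′ side 0.27 in lsm5 and 0.17 in lsm4. Introns with no annotated exon inside (10078) had medians of 0.33 in lsm5 and 0.68 in lsm4, and those with an exon of another gene inside (715) 0.18 in lsm5 and 0.25 in lsm4. In summed reads the difference between the mutants lay between -0.41 and 0.22 over the 27 classes. It was above 0 for introns of 500 bases or more (0.09, SE 0.16) and sole introns (0.13, SE 0.17). So it was for introns with an exon of the same gene inside (0.12, SE 0.07) and with GC and AG ends (0.22, SE 0.27). In all other classes it lay below 0, also on the 3′ side of the coding region (-0.40, SE 0.21). In that class 3.08% of introns were raised in lsm5 and 6.15% in lsm4. The exact permutation p, two-sided over 400 assignments and adjusted over the 27 classes, was 0.508 at its smallest. As for whole libraries, this test cannot reach a small p where both mutants lie above their wild type. It therefore does not show that a class lacks a difference.

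**Figure D5:**
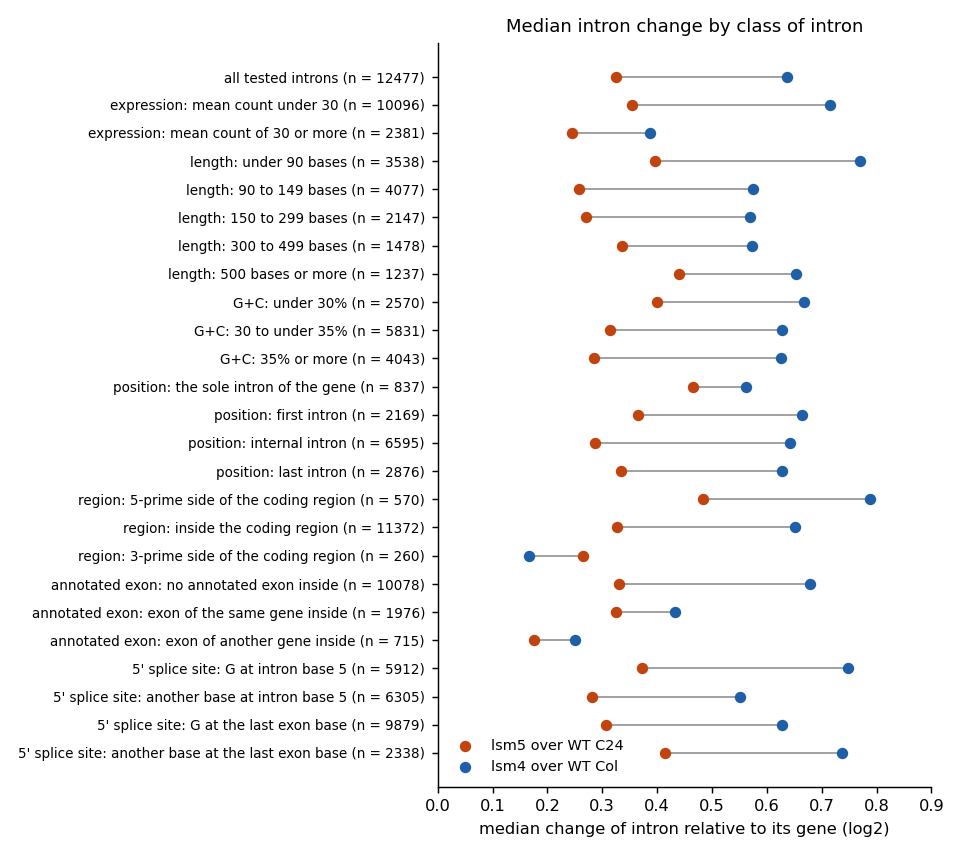
Median log2 change of introns relative to their gene in lsm5 over WT C24 and in lsm4 over WT Col (x axis) for classes of tested introns (y axis). The lsm4 point lies to the right of the lsm5 point in all classes drawn but introns on the 3′ side of the coding region, where the medians are 0.27 in lsm5 and 0.17 in lsm4. In summed reads, not drawn, that class changes by 0.17 in lsm5 and 0.57 in lsm4.

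AS bins moved little on the whole. Their median change was 0.04 in lsm5 and 0.09 in lsm4, and 1 bin was raised in lsm5 (0.0259%) and 17 were raised in lsm4 (0.44%). The bin raised in lsm5 belongs to RCD1, a regulator of oxidative stress responses, and was raised in both mutants. It held 85, 75 and 115 reads in lsm5 and 9, 10 and 15 in WT C24, and 87, 153 and 80 in lsm4 and 4, 11 and 5 in WT Col. It rose by 2.45 in lsm5 (SE 0.35, edgeR adjusted p = 0.026) and by 2.59 in lsm4 (SE 0.38, edgeR adjusted p = 0.014), a difference of -0.14 (SE 0.50). In single-library leave-outs the count of called bins was 0 to 1 in lsm5 and 0 to 21 in lsm4. The 1083 bins of annotated intron retention had medians of 0.15 in lsm5 and 0.17 in lsm4, and the 1267 bins of alternative 3′ splice sites 0.00 in lsm5 and 0.06 in lsm4. As a percent of gene reads, bins of alternative 5′ splice sites held 0.646 ± 0.00778% in lsm5 and 0.677 ± 0.0302% in WT C24, and 0.657 ± 0.0571% in lsm4 and 0.616 ± 0.00908% in WT Col. That difference was -0.16 (SE 0.08), with an exact permutation p of 0.02, or 0.12 when adjusted over the 6 sets of bins. Bins of alternative 3′ splice sites held 1.08 ± 0.00636% in lsm5 and 1.11 ± 0.0225% in WT C24, and 0.867 ± 0.0285% in lsm4 and 1.02 ± 0.0266% in WT Col, a difference of the other sign (0.20, SE 0.04; exact permutation p of 0.095, adjusted 0.285). For 5′ sites the changes were -0.07 in lsm5 and 0.09 in lsm4, and for 3′ sites -0.04 in lsm5 and -0.24 in lsm4. The permutation test gives larger p-values when both mutants change in the same direction, so its p-values do not rank these differences. The 4 sets not named had differences of 0.04 to 0.11.

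The bins described next were chosen after their values were seen, and none was called for the difference. A bin of alternative 3′ splice sites in SR34 held 113, 85 and 68 reads in lsm5 and 69, 131 and 123 in WT C24, and 268, 241 and 291 in lsm4 and 57, 328 and 171 in WT Col. Relative to the gene it was at 8.47 ± 1.45% in lsm5 and 16 ± 2.54% in WT C24, and at 26.7 ± 3.4% in lsm4 and 18.5 ± 0.850% in WT Col, without overlap and in opposite directions. The difference was -1.43 (SE 0.32, edgeR adjusted p = 0.48). In AT2G16940, annotated as a splicing factor of the CC1-like family, the bin with the smallest p for the difference held 2, 3 and 1 reads in lsm5 and 5, 14 and 11 in WT C24, and 62, 39 and 31 in lsm4 and 12, 36 and 12 in WT Col (difference -3.63, SE 0.76, edgeR adjusted p = 0.48). The lsm5 counts were the lowest of all groups. An annotated retention bin of AT3G01980 was at 132 ± 8.87% of gene density in lsm5 and 96.6 ± 20.8% in WT C24, and at 116 ± 18.5% in lsm4 and 22.3 ± 10% in WT Col, with a difference of -1.79 (SE 0.44, adjusted p = 0.79).

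The authors' deposited table lists 416 introns as higher in lsm5 and 3024 as higher in lsm4, and 167 are in both, which is 40.1% of the list for lsm5 and 5.52% of that for lsm4. The authors also listed 112 introns as lower in lsm5 and 1191 as lower in lsm4. Among the introns tested here, 2 were called lowered in lsm5 and 17 in lsm4. Why these counts differ was not tested. Of 240 tested introns in the authors' deposited table for lsm5, 240 lay above 0 in lsm5 here and 102 were called raised. Of 1050 in the authors' deposited table for lsm4, 1050 lay above 0 in lsm4 here and 631 were called raised. The authors' lists were drawn from these same samples, so the shared signs are not an independent check. Over all tested introns, 69.3% lay above 0 in lsm5 and 80.7% in lsm4. In opposite directions, the authors' deposited tables share 3 introns up in lsm5 and down in lsm4, and 4 down in lsm5 and up in lsm4.

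At the gene level, changes were tested in a fit of their own, without a host count as offset, over all genes that passed its filter and not over the hosts of the tested introns alone. Of 21588 genes tested, 2265 (10.5%) had a change that differed between lsm5 and lsm4 in edgeR's quasi-likelihood test at an adjusted p under 0.05. How this share compares with that of introns was not tested.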

How the data were processed

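The authors deposited whole-number read counts, not normalized, for genes, introns and AS bins; column sums differ. The tools TopHat2 2.0.9, R 3.0.2 and edgeR 3.4.2 and the TAIR10 build come from the submitters' processing notes, and which program counted the reads is not given in the sources used here. Log2 fold changes and their FDR-adjusted p-values stand in the authors' deposited tables of results and were used only where named. Not used were 12 per-sample columns that match no label and 1 unnamed intron row with 11 counts.

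All 12 count columns, each holding both libraries of a replicate, were joined by feature. Introns and bins were tested with edgeR 4.0.16 (R 4.3.3) by quasi-likelihood F tests, with the host gene's log count as offset, 1 level per group, the filterByExpr filter (minimum count 10) and at least 10 host reads in every library. The interaction of genotype and accession gave the difference; p-values were adjusted over all tested features, with calls under 0.05. SE is the log2 value divided by the square root of F. No pair of replicates agreed within sampling noise. Of the genes, 97.72% matched a locus tag of the reference, whose gene models gave strand, exon overlap and splice sites. Introns are numbered from the 5′ end of the gene. Scripts were tested on simulated data. Alternatives included DESeq2 1.42.0, other filters, blocks and leaving out replicates.

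Named were called introns with at least 30 reads per accession (up to 10 per direction), called bins (up to 5), introns of LSM4 and LSM5, and per list the introns with the widest difference in each direction; all other named features were chosen after their values were seen. The members, lists and tests were chosen with earlier results of these data known.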

Additional observations from a re-analysis of the deposited data

Results flagged for a closer look

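A few results differed between the mutants by the test of the difference itself. The difference between lsm5 and lsm4 was -4.01 (log2) for intron 5 of LSM4, -3.24 for the 3′-most intron of AT3G26850 and -3.68 for the AS bin of PRIN2. The first lies in the gene mutated in lsm4 and contains an annotated small nucleolar RNA gene. The next overlaps the 3′ end of PES2, whose own level differed by -2.11 in the same direction. The part of the lesion and of these other genes in the results was not tested.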

How the results depend on the processing

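With all libraries, 2 introns and 1 bin differed between the mutants. The count of introns was 34 with no filter on low counts, 12 with DESeq2, 1 with a host count of at least 50, 1 with the intron taken out of the host count, 1 against a log2 change of 1 (glmTreat) and 0 without exon overlap; with 1 library left out it was 2 to 8. The count of bins was 3 with DESeq2 and 1 in each single leave-out. Introns called in lsm5 (203) numbered 18 when centred on the median intron, 111 at a mean count of at least 30, 324 with DESeq2 and 9 against a log2 change of 1, with 22 to 318 in single leave-outs. Introns called in lsm4 (1276) numbered 271 when centred, 350 at a mean count of at least 30 and 214 against a log2 change of 1, with 407 to 1748 in single leave-outs. Bins called in lsm5 (1) numbered 2 at a mean count of at least 30, 48 with DESeq2 and 0 against a log2 change of 1, with 0 to 1 in single leave-outs. Bins called in lsm4 (17) numbered 55 with DESeq2 and 0 against a log2 change of 1, with 0 to 21 in single leave-outs. Host genes with a difference (2265) numbered 3411 with DESeq2, with 1368 to 2832 in single leave-outs. Alternatives that filter features or leave out libraries also changed which features passed the filters: single leave-outs tested 14504 to 15539 introns, against 12477 with all libraries. The causes of these moves were not tested.

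Leaving out 2 libraries together was chosen after seeing the data. Without lsm5 3 and WT C24 2, calls were 105 introns and 2 bins for the difference, 687 introns and 35 bins in lsm5, and 2154 introns and 32 bins in lsm4. Without lsm4 2 and WT Col 1 they were 4 introns and 0 bins for the difference, and 622 introns and 0 bins in lsm4.

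Same-numbered libraries did not deviate together throughout: their correlations over 2381 introns were -0.20, 0.41 and 0.38 in C24 and -0.24, -0.14 and 0.25 in Col, and not every library correlated best with its own number, so the numbers were not taken as pairs. With the replicate number as a block, 8 introns were called for the difference, 0 bins in lsm5 and 10 bins in lsm4. With blocks by the letters or Roman numerals of the library names, 14 introns and 0 bins were called for the difference, and 0 bins in lsm5 and 0 in lsm4.

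The difference in intron share kept its sign in all 16 alternatives, from -0.40 to -0.32 in single leave-outs. Of 689 alternatives of 30 named features, 639 kept both direction and side of the threshold, 47 passed it newly, 3 lost it and 0 reversed. The 3 were AT3G26850 against a log2 change of 1 (adjusted p = 0.13) and PRIN2 with blocks by library name (adjusted p = 0.26) and without lsm4 2 and WT Col 1 (adjusted p = 0.051), all by edgeR. Of the 30, only the called introns of LSM4 and AT3G26850 and the PRIN2 bin had passed the threshold to begin with. For the others, keeping the side of the threshold meant staying uncalled. Most of those were chosen after their values were seen, so their kept direction is not an independent check. Not all features named above were among the 30. The depth of WT Col 1 and low intron counts limit single introns.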
